A study of Mus musculus with 6 samples.

Results

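The genes described here encode the protein folding machinery of the cell. They are 42 genes listed by symbol, 24 of the endoplasmic reticulum (its chaperones, its degradation factors and the sensors and transcription factors of the unfolded protein response) and 18 of the heat shock system of the cytosol and mitochondria. A probe set naming the gene alone was found for 40 of the 42, against 18194 genes on the array in all. Hsp90ab1, a cytosolic HSP90, and Hsf1, the main heat shock transcription factor, had none in the annotation used here. Each gene was read from its probe set with the highest mean over the 6 arrays, and 39 of the 40 had a mean log2 intensity of at least 6 (an intensity of 64), a floor that 11153 of all genes passed. Hsf2, a second heat shock factor, stayed under it with intensities of 51 to 61. The 39 genes over the floor are called the members below.

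RNA came from ovarian granulosa cells of immature mice, 23 days old, all given 5 IU of equine chorionic gonadotropin (eCG) 48 h earlier to make follicles grow. The wild type mice were compared with mice lacking the kinases ERK1 and ERK2, labelled ERK1 knockout and ERK2 fl/fl;Cyp19CRE, so that the floxed allele was to be deleted where the Cyp19 (aromatase) promoter drives Cre. Each genotype was sampled before human chorionic gonadotropin (hCG, a stand-in for the luteinizing hormone surge) was given and 2.5 h and 4 h after 5 IU of it, and each of these 6 groups was measured on 1 Affymetrix array. There are no replicates and the labels name no animals, so a difference between a pair of arrays has no error and no p-value. A member is said to differ between arrays where its values lie at least 2-fold apart (a log2 difference of 1), and smaller differences are given as values only.

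Proteins that enter the endoplasmic reticulum fold with the help of resident chaperones, and when unfolded chains pile up the sensors IRE1 (Ern1), PERK (Eif2ak3) and ATF6 start the unfolded protein response. IRE1 splices the mRNA of Xbp1, PERK slows translation and favours that of Atf4, and ATF6 is cut to release a transcription factor, which together raise chaperones and the machinery that sends misfolded proteins to the proteasome. In the cytosol HSF1 plays the matching part by switching on HSP70, HSP40 and HSP90 genes. After the ovulatory surge granulosa cells secrete matrix and signals and later make steroids, work that draws on both systems. The arrays measured mRNA only, so neither Xbp1 splicing nor the activation of a sensor was seen.

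The arrays were alike in overall signal, with a median intensity of 54 or 55 and 47.1% to 47.6% of probe sets over the floor. All of 12 measured granulosa markers were over the floor on every array. They summed to intensities of 135586, 102939 and 79492 at the 3 times in wild type, where 12 of 12 lay below 0 h at both later times (medians -0.44 and -1.08, log2), against 128927, 155586 and 151245 in knockout, where 7 of 12 lay above 0 h at both. At 4 h 12 of 12 were above wild type in knockout. Their sum was thus lower after hCG in wild type and higher in knockout, and their part in the results below was not tested. The 3' to 5' signal ratio of Gapdh, which grows as RNA degrades, ran from 3.55 to 4.79 in wild type and from 3.99 to 5.21 in knockout, highest on both 0 h arrays. The 16 measured oocyte markers summed to intensities of 23475, 14284 and 15393 at the 3 times in wild type, against 43505, 18179 and 15484 in knockout, with 2 of the 16 under the floor on every array and none listed at 0. Oocyte markers were thus higher at 0 h than after hCG and highest on the knockout array at 0 h. On that array 36 of the 39 members lay below wild type. The part of oocyte RNA or of RNA integrity in the results below was not tested. The 6 theca markers measured include steroid enzymes that luteinizing granulosa cells can make. They summed to 35365, 34387 and 32975 in wild type, against 29985, 53866 and 58360 in knockout, so the sum was higher after hCG in knockout alone. The list was split, however. Of 5 over the floor, 2 lay above wild type in knockout and 3 below, at 2.5 h and at 4 h. Cyp17a1 had 1994, 2037 and 1399 in wild type, against 1845, 14251 and 13997 in knockout. Ptch1 had 3247, 1789 and 1868 against 3308, 1060 and 1540, and Cyp11a1 was higher after hCG in both genotypes. The 9 endothelial markers summed to 717, 1202 and 1008 against 696, 759 and 726, and the 4 of them over the floor all lay below wild type in knockout at 2.5 h and 4 h. The 2 red cell markers summed to 345, 535 and 557 against 381, 211 and 245. Sums in wild type and in knockout were 1567 to 1619 and 1613 to 2159 for 11 macrophage markers, 3788 to 5111 and 3236 to 4295 for 5 smooth muscle markers and 2596 to 3007 and 2894 to 3956 for 7 surface epithelium markers. The surface epithelium markers lay above wild type in knockout in 5 of 7 cases at 0 h and 6 of 7 at 2.5 h and 4 h. Their medians were 0.62, 0.66 and 0.81 (log2). Of 9 macrophage markers over the floor, 4 lay above wild type at 0 h and 7 at 2.5 h and 4 h. Of 3 smooth muscle markers over the floor, 1, 0 and 1 did at the 3 times. The part of these lists was not tested. Fewer cells of a type and less RNA per cell cannot be told apart in such bulk samples.

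Promoters show how the members divide before any array value is used. RefSeq windows (mouse GRCm38.p6) of 250 bases before to 50 bases after the start were given for 35 of the 42 genes and were searched on both strands. The endoplasmic reticulum stress element (CCAAT and CCACG with 9 bases between them) was in 7 of 21 endoplasmic reticulum genes (33.3%), in 0 of 14 heat shock genes and in 0.137% of all 27025 genes with a window. The 7 genes were Hspa5, Hsp90b1, Calr, Canx, Pdia6, Dnajc3 and Creld2. A heat shock element core (GAANNTTC or TTCNNGAA) was in 9 of 14 heat shock genes (64.3%), in 1 of 21 endoplasmic reticulum genes (4.76%, Eif2ak3) and in 17.0% of all genes. The parts of the stress element were common on their own, CCAAT in 85.7% of endoplasmic reticulum, 57.1% of heat shock and 41.1% of all genes and CCACG in 76.2%, 50% and 35.5%. The XBP1 element TGACGTGG and the cAMP element TGACGTCA were in 0 of the 35 genes, against 0.714% and 2.03% of all genes. The ATF4 composite element TGATGNAA was in 2 of 35 (5.71%, Herpud1 and Trib3) against 4.51%. A match is a string of letters and not a shown binding site, and each of these counts and shares takes a gene as matched if any of its windows is.

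The 250 bases before the start are printed for Hspa1b, chr17:34959239-34959488 (minus strand), and Hspa1a, chr17:34972157-34972406 (minus strand), because these neighbouring HSP70 genes showed the widest opposite differences between the genotypes. Capitals mark the heat shock element core, at bases 147 to 154 counted from the 5' end in both.
Hspa1b: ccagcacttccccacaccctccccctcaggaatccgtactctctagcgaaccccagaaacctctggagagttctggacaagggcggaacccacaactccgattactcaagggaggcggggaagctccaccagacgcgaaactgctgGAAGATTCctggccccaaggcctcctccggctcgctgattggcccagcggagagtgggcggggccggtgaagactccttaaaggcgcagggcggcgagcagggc
Hspa1a: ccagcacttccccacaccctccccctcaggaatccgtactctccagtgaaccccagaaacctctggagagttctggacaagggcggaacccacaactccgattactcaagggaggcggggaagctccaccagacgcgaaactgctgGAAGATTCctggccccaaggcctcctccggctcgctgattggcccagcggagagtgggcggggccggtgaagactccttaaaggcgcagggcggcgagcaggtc
The full 300-base windows differ at 4 bases and are 98.7% identical. From Hspa1b to Hspa1a the differences are T44C, C47T, G249T and T276C, the last behind the start and not printed. The genes are near-identical copies, so signal on a probe set of one may come from the other.

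Next come 3 genes of the endoplasmic reticulum that were at least 2-fold lower in wild type at 4 h, Herpud1 at chr8:94386179-94386428 (plus strand), Sel1l at chr12:91849158-91849407 (minus strand) and Eif2ak3 at chr6:70844265-70844514 (plus strand), with CCAAT and CCACG on either strand in capitals. Hspa5 at chr2:34771840-34772089 (plus strand) is set beside them as a chaperone with the whole stress element, in capitals. Its brightest probe set had a range of 1.24-fold over the arrays.
Herpud1: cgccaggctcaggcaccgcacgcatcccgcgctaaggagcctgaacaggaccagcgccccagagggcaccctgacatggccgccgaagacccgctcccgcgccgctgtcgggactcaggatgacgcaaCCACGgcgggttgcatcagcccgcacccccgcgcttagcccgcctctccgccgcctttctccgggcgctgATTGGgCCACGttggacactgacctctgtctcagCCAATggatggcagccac
Sel1l: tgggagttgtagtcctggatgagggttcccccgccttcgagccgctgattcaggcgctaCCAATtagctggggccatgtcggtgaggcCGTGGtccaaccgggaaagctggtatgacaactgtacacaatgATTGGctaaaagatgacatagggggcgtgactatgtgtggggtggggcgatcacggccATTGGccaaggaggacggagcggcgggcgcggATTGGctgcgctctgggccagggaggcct
Eif2ak3: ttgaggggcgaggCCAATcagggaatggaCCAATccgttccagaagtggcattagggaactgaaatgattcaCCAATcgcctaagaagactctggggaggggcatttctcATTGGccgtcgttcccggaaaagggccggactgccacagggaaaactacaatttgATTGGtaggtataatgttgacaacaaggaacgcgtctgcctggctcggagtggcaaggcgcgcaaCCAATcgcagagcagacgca
Hspa5: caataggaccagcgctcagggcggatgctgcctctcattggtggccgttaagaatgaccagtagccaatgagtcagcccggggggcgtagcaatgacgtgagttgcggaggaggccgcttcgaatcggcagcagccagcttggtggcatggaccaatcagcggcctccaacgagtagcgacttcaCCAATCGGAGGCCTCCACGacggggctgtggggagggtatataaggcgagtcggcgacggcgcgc
None of the first 3 holds the whole stress element in this window. Herpud1 has ATTGG and CCACG 1 base apart at bases 199 to 209, the spacing of the second endoplasmic reticulum stress element. A search for it, added after the windows had been seen, found it in 2 of the 35 genes (Herpud1 and Dnajb11, 5.71%) and in 0.0444% of all genes. Sel1l has CCAAT at 4 places and CCACG at 1, and Eif2ak3 has CCAAT at 6 places and no CCACG.

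Before hCG, 36 of 39 members lay below wild type in knockout cells, most by less than 2-fold, against 56.1% of all genes over the floor. The median log2 difference was -0.26 for the 24 endoplasmic reticulum members and -0.39 for the 15 heat shock members, beside -0.03 for all genes. At least 2-fold lower were 2 of 39 members, Hspa1b and Hspa1a, beside 0.852% of all genes, and 0 were 2-fold higher, beside 0.681%. The 3 members above wild type were Ern1 (0.48, log2), Hsp90aa1 (0.11) and Trib3 (0.09). With cyclic loess scaling, with each array centred on its median gene, or averaging a gene's probe sets, the count below wild type was 36 each time (alternatives added after seeing the data).

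**Figure D1:**
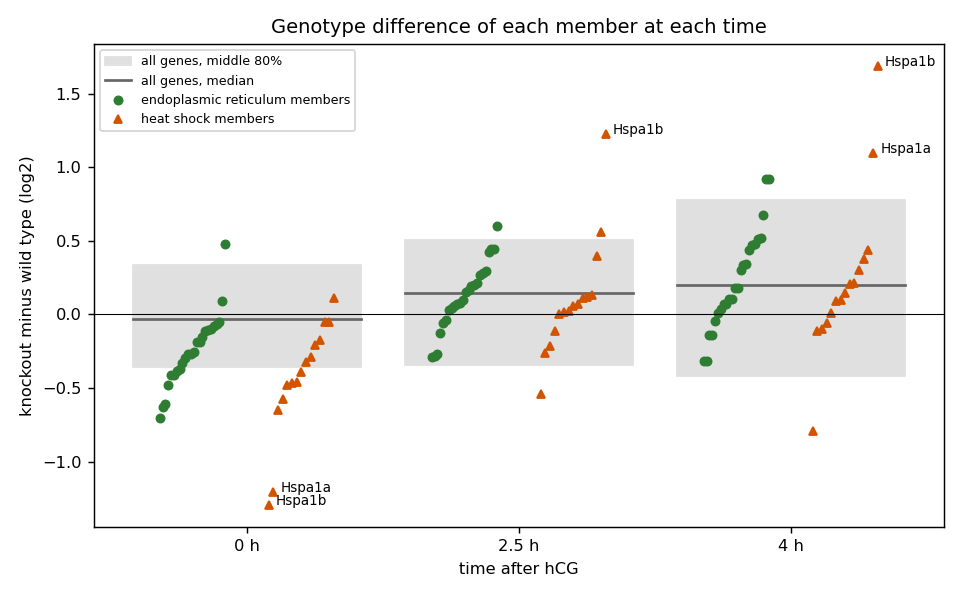
Log2 difference between knockout and wild type (vertical axis) for each member at 0 h, 2.5 h and 4 h after hCG (horizontal axis), 1 array per genotype and time. Circles are the 24 endoplasmic reticulum members, triangles the 15 heat shock members, the grey band the middle 80% of all genes over the floor and the grey line their median. At 0 h 36 of 39 members lie below 0, and Hspa1a and Hspa1b lie lowest at 0 h and highest at 4 h.

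After hCG each array was set against the 0 h array of its own genotype. In wild type cells 32 of 39 members lay below 0 h at 2.5 h and 31 at 4 h, but so did 72.2% and 66.4% of all genes, whose median moved by -0.22 and -0.21. Relative to that shift the members as a group lay on both sides, with 20 below and 19 above the median gene at 2.5 h and 19 below and 20 above at 4 h. At 2.5 h Hspa1b and Hspa1a were at least 2-fold lower, 2 of 39 beside 1.0% of all genes, and 0 members were 2-fold higher, beside 3.30%. At 4 h Herpud1, Sel1l and Eif2ak3 joined them, 5 of 39 beside 9.11%, and again 0 were higher, beside 4.91%. Of these calls Hspa1a at 2.5 h was lost with cyclic loess (-0.90, log2) and median centring (-0.83). At 4 h those of Sel1l (-0.90, -0.84 and -0.39) and Eif2ak3 (-0.92, -0.88 and -0.28) were lost with cyclic loess, median centring and averaged probe sets, and median centring made Atf4 2-fold higher (1.02). With the knockout 0 h array as reference Hspa1b was at -0.19 and -0.74 (log2) at the later times. Of the 5 only Herpud1 then stayed 2-fold lower at 4 h (-1.12). Between 2.5 h and 4 h 0 members differed 2-fold, beside 1.17% of all genes higher and 1.87% lower.

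In knockout cells most members lay above 0 h. They did so in 27 of 39 cases at 2.5 h and 32 of 39 at 4 h, with medians of 0.14 and 0.21 beside -0.02 and 0.02 for all genes, of which 47.0% and 51.5% lay above. At least 2-fold higher at 2.5 h was 1 member, Hspa1b, beside 3.35% of all genes, and at 4 h 2 members, Atf4 and Hspa1a, beside 3.87%, that of Atf4 lost with cyclic loess (0.97, log2) and averaged probe sets (0.56). None of the 39 was 2-fold lower, beside 3.56% and 4.55%. From 2.5 h to 4 h 0 members differed 2-fold, beside 0.421% of all genes higher and 0.484% lower. Set against the wild type 0 h array instead, the same knockout arrays gave medians of -0.10 and -0.09 for the endoplasmic reticulum members. Those of the heat shock members were -0.19 and -0.06, and those of all genes -0.06 and -0.02. The swap was also made for wild type after hCG, with the knockout 0 h array as reference. Medians were then -0.02 and -0.09, 0.20 and 0.16, and -0.16 and -0.18, in the same order.

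Set against each other, the log2 response of knockout exceeded that of wild type in 36 of 39 members at 2.5 h (92.3%, all genes 65.8%) and in 34 of 39 at 4 h (87.2%, all genes 68.4%). The median gap was 0.34 and 0.41, beside 0.15 and 0.22 for all genes. In 20 members at 2.5 h (51.3%, all genes 26.4%) and 25 at 4 h (64.1%, all genes 26.1%) the wild type array lay below its 0 h array while the knockout array lay above its own. These counts at both times rest on the same pair of 0 h arrays, and the wild type 0 h array was the highest of the 6 for 21 of 39 members (53.8%, all genes 20.6%). Scaled by cyclic loess, the response of knockout was above that of wild type in 28 and 32 members, beside 48.9% and 52.7% of all genes, and after median centring in 33 and 32, beside 50.7% and 50.1%.

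**Figure D2:**
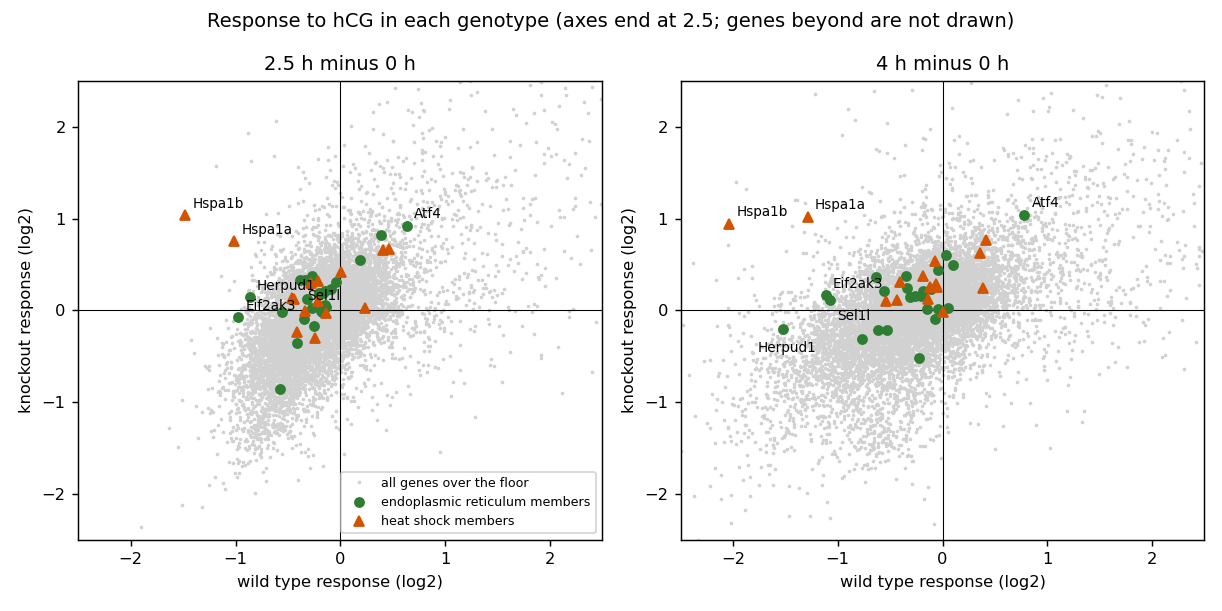
Log2 response to hCG in wild type (horizontal axis) and in knockout (vertical axis) at 2.5 h and at 4 h, each against its own 0 h array. Circles are endoplasmic reticulum members, triangles heat shock members and grey points all genes over the floor. Most members lie to the left of and above the origin, 20 of 39 at 2.5 h and 25 of 39 at 4 h, with Hspa1a and Hspa1b farthest out and Atf4 high in both genotypes.

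Compared directly, knockout exceeded wild type in 29 of 39 members at 2.5 h and 30 of 39 at 4 h, beside 66.7% and 68.2% of all genes. The medians of 0.07 and 0.18 lay under those of all genes, 0.14 and 0.20. At least 2-fold higher in knockout was Hspa1b at 2.5 h, beside 1.44% of all genes, and Hspa1b and Hspa1a at 4 h, beside 5.00%. 0 members were 2-fold lower, beside 2.75% and 3.51%, but Hsph1 was lower at 4 h (-1.02, log2) with cyclic loess and with averaged probe sets. This direction did not hold under other scalings, with 11 and 17 members above wild type under cyclic loess and 16 and 18 after median centring, both added after seeing the data.

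**Figure D3:**
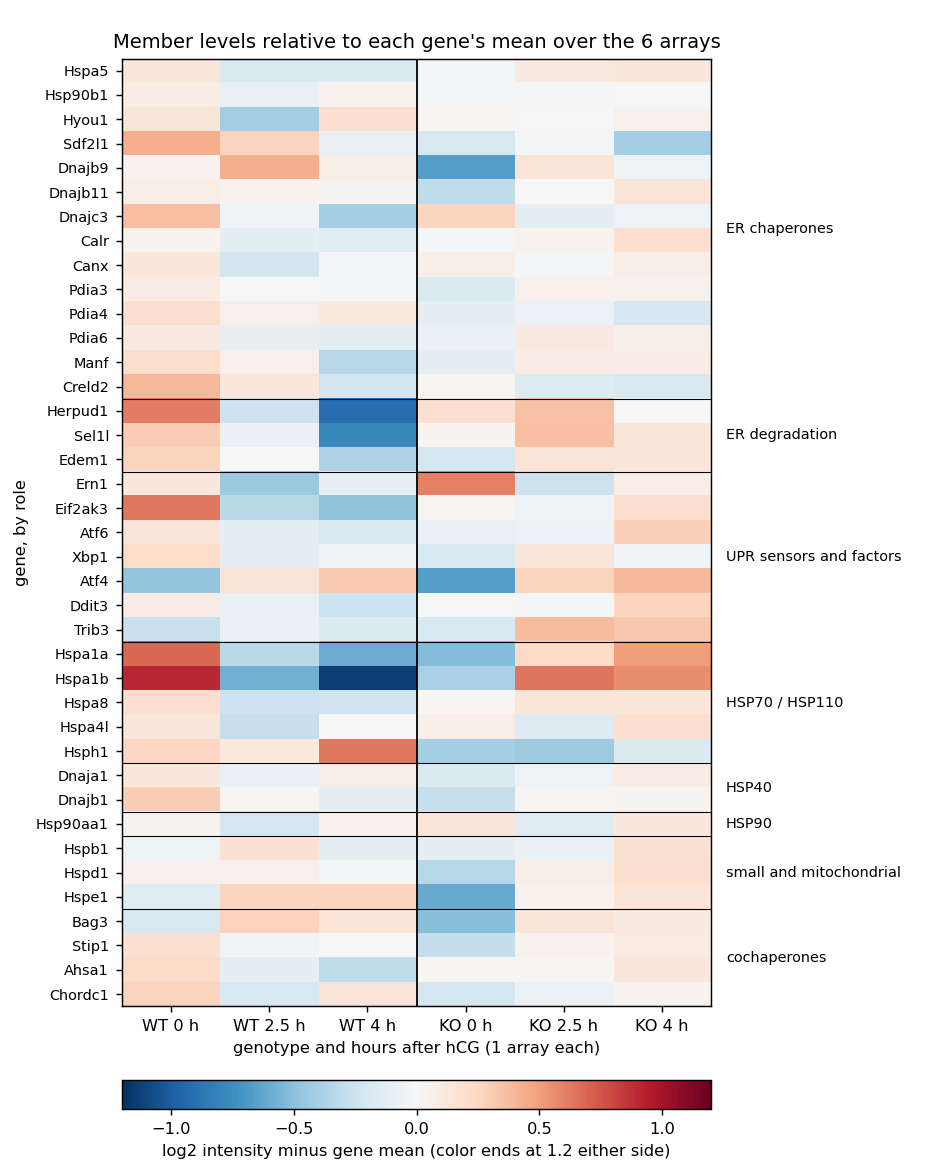
Level of each of the 39 members (rows, grouped by role) on each array (columns), as log2 intensity minus the mean of that gene over the 6 arrays, red above and blue below it. The wild type 0 h column is the highest for 21 members, the knockout 0 h column is the lowest for 12 and the wild type 4 h column for 15.

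Hspa1b, a cytosolic HSP70 made on stress, had the widest range over the arrays of all members, 4.10-fold. It read 2325 in wild type cells before hCG, 833 at 2.5 h and 567 at 4 h, and in knockout cells 948, 1947 and 1827 in the same order (intensities, as in all such sets of 3 below). It was thus high before hCG and low after it in wild type, and the reverse in knockout, where both arrays after hCG stayed under the wild type 0 h level. Against 0 h it was 2.79-fold and 4.10-fold lower in wild type and 2.05-fold and 1.93-fold higher in knockout. Knockout was 2.45-fold below wild type at 0 h, 2.34-fold above at 2.5 h and 3.22-fold above at 4 h. Its other probe sets gave the same order, 1560, 504 and 313 in wild type against 540, 1105 and 1067 in knockout by one and 1179, 381 and 222 against 372, 929 and 884 by the other.

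Hspa1a, its near-identical neighbour, was dim but followed the same course, with 222, 110 and 91 in wild type, against 96, 162 and 195 in knockout. The values after hCG in wild type and before it in knockout were the low ones, not far above the floor. Wild type was 2.02-fold and 2.44-fold lower than at 0 h, and knockout 1.69-fold and 2.03-fold higher. Both genes crossed between the genotypes under every scaling tried, although the difference between the genotypes at 4 h for Hspa1a was 0.90 (log2) after median centring and so under 2-fold. Because probes of the copies may share signal, these are not independent observations.

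The other HSP70 relatives did not follow that course to the same degree. Hspa8, the constitutive HSP70, had 18218, 13376 and 13466 in wild type, against 16126, 17588 and 17470 in knockout, the same order with differences of at most 0.45 (log2). One dimmer probe set of Hspa8 ran wider, 527, 325 and 266 against 216, 339 and 531, and another was lower after hCG in both genotypes. Hspa4l, an HSP110-type exchange factor, ranged from 229 to 319. Hsph1, the HSP110 that recharges HSP70, had 5239, 4781 and 6854 in wild type, against 3346, 3285 and 3958 in knockout. All knockout arrays lay below all wild type arrays, by 1.57-fold, 1.46-fold and 1.73-fold, and a second probe set gave the same order with 941, 918 and 1411 against 517, 493 and 594.

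Among the degradation factors, which pull misfolded proteins out of the endoplasmic reticulum, all of 3 lay below 0 h in wild type at both times. Herpud1, a membrane protein of the retrotranslocation complex, had 2075, 1141 and 720 in wild type, against 1562, 1729 and 1360 in knockout. It was lower on each later array in wild type, 2.88-fold at 4 h, while the knockout arrays stayed within 1.27-fold of each other. Its second probe set read 1025, 533 and 352 against 743, 882 and 709. Sel1l, the scaffold of the HRD1 ubiquitin ligase, had 3462, 2651 and 1640 against 2869, 3601 and 3103. The wild type 4 h array was the low one, 2.11-fold under 0 h and 1.89-fold under knockout.

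Not all probe sets of these genes showed it. Of the other 3 probe sets of Sel1l over the floor, 1 repeated the wild type difference at 4 h (-1.04, log2) and 2 did not (-0.05 and -0.08). Edem1, a lectin that hands glycoproteins to degradation, had 1570, 1304 and 1011 in wild type, against 1125, 1462 and 1447 in knockout by its brighter probe set. By the other, both genotypes were higher after hCG, with 979, 1184 and 1322 and 742, 1128 and 1152. For the 3 genes together, the median log2 difference of wild type at 4 h from 0 h was -1.08, and -0.90, -0.84 and -0.39 with cyclic loess, median centring and averaged probe sets.

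**Figure D4:**
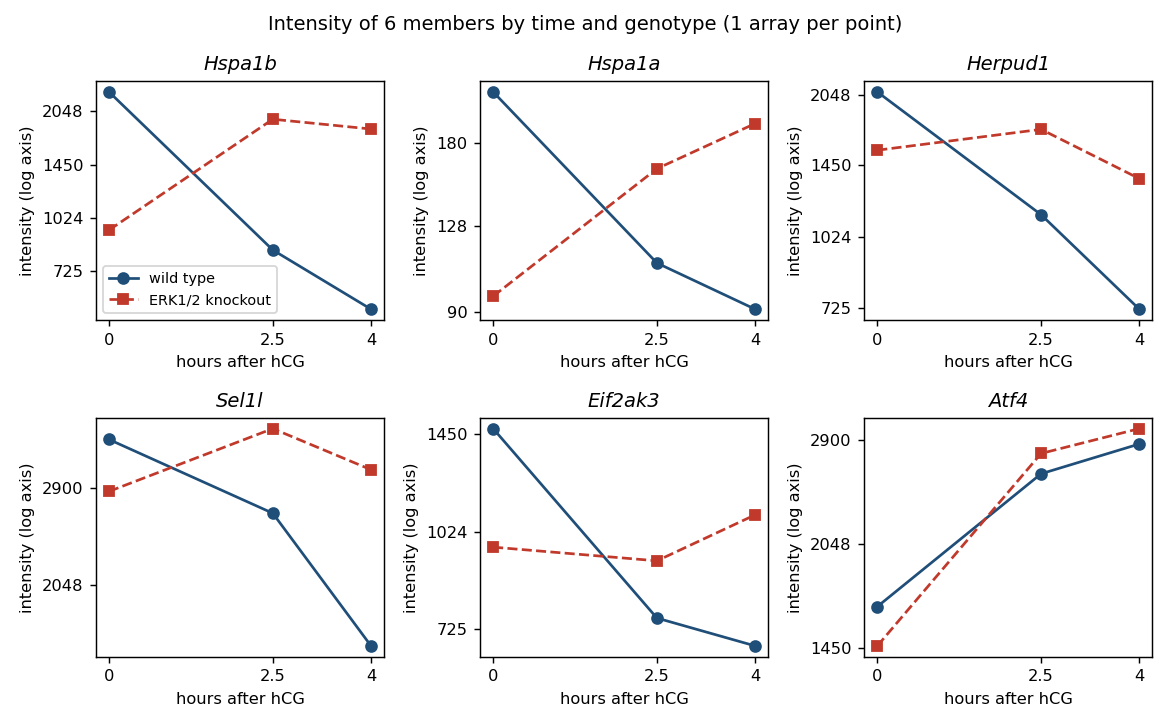
Intensity (vertical axis, logarithmic) of Hspa1b, Hspa1a, Herpud1, Sel1l, Eif2ak3 and Atf4 against hours after hCG (horizontal axis), with circles and solid lines for wild type and squares and dashed lines for knockout, 1 array per point. The lines cross for Hspa1b, Hspa1a, Herpud1, Sel1l and Eif2ak3, which start higher in wild type and end higher in knockout, while Atf4 is higher after hCG in both.

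The sensors differed among themselves. Eif2ak3 (PERK) had 1477, 753 and 682 in wild type, against 969, 923 and 1087 in knockout. The wild type 0 h array stood above the other 5, which lay within 682 to 1087, and wild type was 2.17-fold lower at 4 h. Its other probe sets were under the floor. Ern1 (IRE1) had 3609, 2426 and 3083 in wild type, against 5021, 2772 and 3494 in knockout, lowest at 2.5 h in both. This is the member that most exceeded wild type at 0 h, by 1.39-fold, and its dimmer probe sets over the floor were split, one reading 76, 83 and 123 against 113, 92 and 92, again higher in knockout at 0 h, and the other 106, 138 and 210 against 85, 117 and 120, lower. Atf6 ranged from 321 to 445 by its brightest probe set, with the knockout 4 h array highest. A nearly equally bright one read 390, 377 and 405 in wild type, against 326, 336 and 338 in knockout. A dimmer one read 102, 116 and 152 against 92, 112 and 88. Both of these were highest in wild type at 4 h.

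Of the transcription factors of the response, Atf4 stood out in both genotypes. Atf4, translated when PERK or another kinase of its kind slows general translation, had 1663, 2588 and 2858 in wild type, against 1459, 2769 and 3008 in knockout. Every array after hCG was above both 0 h arrays, 1.56-fold and 1.72-fold in wild type and 1.90-fold and 2.06-fold in knockout. A second probe set repeated this with 766, 1263 and 1651 against 798, 1222 and 1333. The remaining, dimmer one was higher in wild type only, with 139, 172 and 185 against 127, 129 and 117. Ddit3 (CHOP), an ATF4 target that can promote cell death, ranged from 205 in wild type at 4 h to 292 in knockout at 4 h.

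Trib3, a pseudokinase downstream of ATF4 and CHOP, was near the floor with 80, 91 and 86 in wild type, against 85, 124 and 120 in knockout. Xbp1, whose mRNA IRE1 splices, had 6022, 4759 and 5031 against 4536, 5715 and 5053. Its highest array was wild type at 0 h and its lowest was knockout at 0 h, so the genotypes differed most before hCG (-0.41, log2).

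By their brightest probe sets the 14 endoplasmic reticulum chaperones and folding enzymes had ranges over the arrays from 1.13-fold (Hsp90b1) to 2.13-fold (Dnajb9). All of 14 lay below wild type in knockout at 0 h, by -0.05 (Canx) to -0.70 (Dnajb9) on the log2 scale. Hspa5 (BiP), the main HSP70 of the compartment, had 23083, 18546 and 18558 in wild type, against 20721, 22575 and 22879 in knockout, a range of 1.24-fold. Its other probe sets took different courses. One was lower after hCG in both genotypes, with 10497, 8343 and 7654 against 8308, 7699 and 7884. The dimmest was higher after hCG in both, with 1376, 1696 and 1740 against 1108, 1495 and 1377. Hsp90b1 (GRP94) stayed within 11931 to 13513 and the lectin chaperones Calr and Canx within 8583 to 10844 and 8080 to 10287. The other probe set of Hsp90b1 varied more, with 3630, 4330 and 3856 in wild type, against 2149, 2643 and 2152 in knockout. It was thus lower in knockout at every time (-0.76, -0.71 and -0.84, log2). One dimmer probe set of Canx was also lower in knockout at every time (-0.29, -0.33 and -0.52). Another was lower at 0 h only (-0.10, 0.24 and 0.22). The disulfide isomerases ranged from 6084 to 7321 (Pdia3), 678 to 889 (Pdia4) and 7713 to 8963 (Pdia6). Hyou1, an exchange factor for BiP, lay between 3232 and 3671 on 5 arrays and at 2412 in wild type at 2.5 h.

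By the brightest probe sets Dnajb9 (ERdj4), an HSP40 that brings BiP to IRE1, was the one chaperone with a 2-fold range. It had 3793, 4965 and 3886 in wild type, against 2327, 4125 and 3525 in knockout. Its knockout 0 h array was the low one and 2.5 h was the highest time in both genotypes. Dnajb11 (ERdj3) had its lowest value, 2275, in knockout at 0 h and ranged up to 3097. Dnajc3, which restrains PERK, had 1693, 1275 and 997 in wild type, against 1572, 1225 and 1263 in knockout, lower after hCG in both. Dimmer probe sets were lower by less, with 1352, 1268 and 1065 against 1103, 1012 and 986, and 603, 518 and 421 against 495, 446 and 471. A further one was nearly level in each genotype, with 742, 709 and 736 against 587, 582 and 587. Creld2 read 3697, 3098 and 2413 against 2862, 2535 and 2475, again lower after hCG in both. Manf, a secreted stress protein, was lowest in wild type at 4 h (4420) and otherwise lay between 5172 and 6499. Sdf2l1, a BiP partner, ranged from 303 to 543 and was highest in wild type at 0 h.

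The 7 endoplasmic reticulum genes with the whole stress element in their window were not the ones that differed most. At 4 h they lay -0.76 to -0.05 from 0 h in wild type (median -0.21, the same as the median of all genes) and -0.32 to 0.21 in knockout (median 0.01). The 14 with a window but no such match ranged wider, -1.53 to 0.78 in wild type and -0.52 to 1.04 in knockout. Of 9 heat shock members with the heat shock core, all lay below wild type in knockout at 0 h (median -0.46) and above their own 0 h array in knockout at 4 h (median 0.54, from 0.24 to 1.02). Among the 9, Hspa1a and Hspa1b are near-identical copies. Hspd1 and Hspe1 have overlapping windows that share their cores, so the 9 are not all separate. The 4 heat shock members with a window and no core all lay on the same sides in the same comparisons, with medians of -0.34 and 0.22. No test was made of these differences, and the sets are small.

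The mitochondrial chaperonin and the cochaperones gave smaller differences. Hspe1 (HSP10), the lid of the chaperonin, had 3632, 4829 and 4846 in wild type, against 2645, 4170 and 4519 in knockout, above 0 h on all arrays after hCG. Its partner Hspd1 (HSP60) had 8796, 8850 and 8387 in wild type, against 6703, 8931 and 9733 in knockout, where the low array was again knockout at 0 h. Bag3, which couples HSP70 to autophagy, had 701, 968 and 900 against 561, 894 and 865. It was higher after hCG in both genotypes, by 1.28-fold to 1.59-fold. Hspb1 (HSP27), a small heat shock protein, ranged from 463 to 570.

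Of the HSP40 genes, Dnajb1 read 3230, 2665 and 2433 in wild type, against 2172, 2675 and 2691 in knockout, and Dnaja1 ranged from 4665 to 5701. Both had their lowest value in knockout at 0 h. Hsp90aa1, the inducible HSP90, lay between 7758 and 9907 and was lowest at 2.5 h in both genotypes by its brightest probe set. Another read 3294, 3756 and 3189 in wild type, against 2798, 3274 and 2935 in knockout, highest at 2.5 h in both. The remaining one over the floor was lowest at 4 h in wild type (5119) and at 2.5 h in knockout (5156). Stip1, which joins HSP70 to HSP90, had 766, 660 and 674 against 555, 694 and 721. Ahsa1, which stimulates the HSP90 ATPase, was lowest in wild type at 4 h with 1080 and highest in wild type at 0 h with 1565. Chordc1, an HSP90 partner, ranged from 1613 in knockout at 0 h to 2253 in wild type at 0 h.

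**Figure D5:**
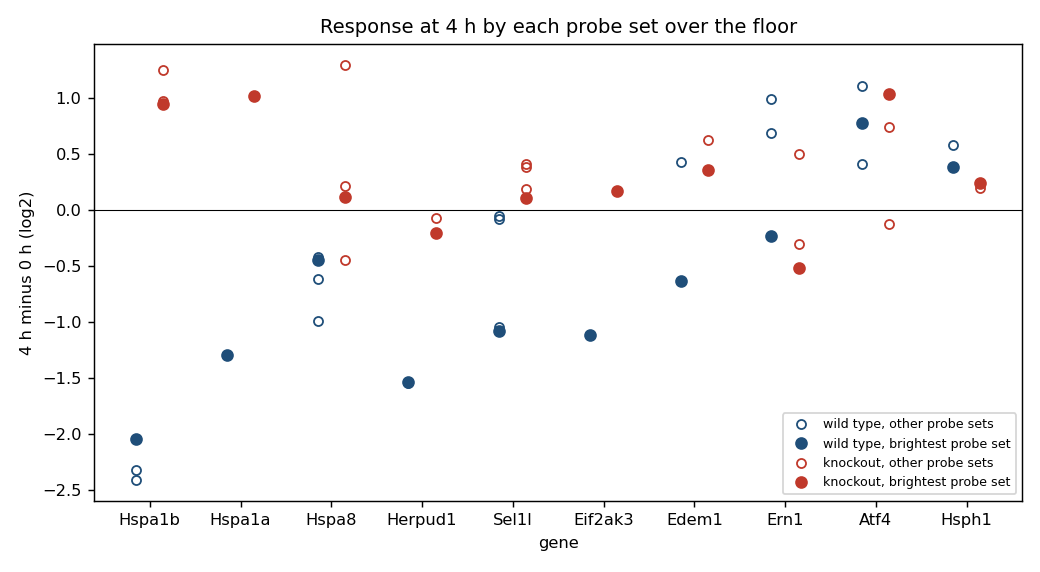
Log2 difference between 4 h and 0 h (vertical axis) in wild type (blue) and knockout (red) by every probe set over the floor for 10 members (horizontal axis), filled for the brightest probe set and open for the others. The probe sets of Hspa1b and Herpud1 lie close together. Those of Ern1 in both genotypes, Edem1 in wild type, and Hspa8 and Atf4 in knockout spread to both sides of 0.

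Over all members, 45 further probe sets of the same genes were over the floor. They had the sign of the brightest one in 38 of 45 cases for knockout against wild type at 0 h, in 28 for wild type at 4 h against 0 h, in 33 for knockout at 4 h against 0 h and in 24 for knockout against wild type at 4 h.

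Fits with limma over all 6 arrays asked which differences held across conditions, with Benjamini-Hochberg adjustment over 11153 genes and 2 residual degrees of freedom. Their error term holds how a difference varied from time to time or between genotypes, and says nothing about animals. For the response to hCG shared by the genotypes (2.5 h and 4 h averaged, against 0 h), 1 of 39 members was called, beside 3.44% of all genes higher and 6.73% lower. This was Atf4, which rose by 0.85 (log2, standard error 0.15, adjusted p = 0.028), above 0 h on 4 of 4 arrays. Next were Hspe1 (0.56, adjusted p = 0.067), Bag3 (0.53, adjusted p = 0.07) and Ern1 (-0.55, adjusted p = 0.07). Without the 2.5 h arrays the adjusted p of Atf4 was 0.064, with a difference of 0.91, and 0 members were called. Of the 39, 6 had an unadjusted p under 0.05, beside 30.1% of all genes.

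For the genotype difference over the 3 times, limma called 0 of 39 members, beside 0.00897% of all genes higher and 0.0269% lower. Hsph1 had the smallest adjusted p, 0.15, with a log2 difference of -0.66 (standard error 0.13) and knockout lower at 3 of 3 times. Of the members 2 had an unadjusted p under 0.05, beside 17.4% of all genes. With the 0 h arrays left out 1 member, Hspa1b, was called. For the interaction, the response of knockout minus that of wild type, 0 members were called and 0% of all genes in either direction, while 5 members had an unadjusted p under 0.05 beside 9.10% of all genes. Hspa1b had the largest value among members, 2.75 (standard error 0.38, adjusted p = 0.38), and stood 23rd of all genes by p, and Hspa1a had 2.04 (standard error 0.30, adjusted p = 0.41). Herpud1 had 1.17 (standard error 0.47) and Eif2ak3 1.09 (standard error 0.27), both with an adjusted p of 0.54 in limma.

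Wider lists of the same pathways gave the setting. Of 73 further endoplasmic reticulum genes over the floor, 61 lay below wild type in knockout at 0 h (median -0.21), beside 56.1% of all genes (median -0.03). Of 61 further heat shock, chaperonin and prefoldin genes 37 did (median -0.03), near the share of all genes, and 0 of either list were 2-fold apart. At 4 h against 0 h, wild type had 4 of the 73 past 2-fold upward and 3 downward, beside 4.91% and 9.11% of all genes, and knockout had 4 and 0, beside 3.87% and 4.55%. Atf3, a stress-induced transcription factor downstream of ATF4, had 51, 192 and 150 in wild type, against 43, 219 and 236 in knockout, with both 0 h arrays under the floor. Yod1, a deubiquitinase of endoplasmic reticulum degradation, had 798, 2874 and 862 against 806, 3588 and 2928. It was high at 2.5 h in both genotypes and at 4 h in knockout, where it was 3.40-fold above wild type.

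Membrane-bound relatives of ATF6 were also among them. Creb3l1 had 96, 190 and 255 in wild type, against 56, 407 and 442 in knockout, and Creb3 had 1948, 2664 and 4689 against 1304, 2496 and 3367. Both were higher after hCG on every array. Creb3l2 had 4310, 3009 and 2187 against 5498, 4383 and 4715, lower after hCG on every array and 2.16-fold higher in knockout at 4 h. Edem2, a mannosidase of the degradation pathway, had 995, 811 and 583 against 994, 1178 and 1213, lower after hCG in wild type and higher in knockout.

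In the heat shock list 1 of 61 genes was at least 2-fold higher than 0 h at 4 h in wild type and 2 in knockout, beside 4.91% and 3.87% of all genes. Dnaja4, an HSP40, had 442, 2652 and 4452 in wild type, against 376, 1400 and 1616 in knockout. It was thus 10.1-fold and 4.30-fold higher at 4 h, and 2.75-fold lower in knockout than in wild type. Dnajb2, another HSP40, had 508, 713 and 449 against 462, 1368 and 1012, with knockout after hCG the high arrays. Pfdn1, a prefoldin subunit, had 399, 297 and 213 against 429, 273 and 207, lower after hCG alike in both genotypes. Unc45a, a myosin cochaperone, had 329, 455 and 462 against 326, 694 and 578. The small heat shock gene Cryab stayed between 44 and 98, at or near the floor.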

How the data were processed

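The deposited table gives an intensity for each probe set on each array. Per the submitters' processing notes it was made with RMA in the affy package, with no version given in the sources used here. The authors' intensities are whole numbers on a linear scale, from 9 to 59425, and their log2 was taken for all differences. The tests had been chosen for log2 values and were kept. The quantile step of RMA forces nearly equal spreads on the arrays and so hides any change in RNA content. Among 45101 probe sets, the platform annotation named a single gene for 34958, several for 932 and none for 9211. Gene IDs of 34754 were found in a GRCm38.p6 gene list, and 0 symbols changed. Of the 42 genes, 30 had several probe sets and 10 had 1, and 84 of 98 probe sets were over the floor. The knockout was not checked on its targeted genes, which are not reported here.

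All of 9 array comparisons used the 2-fold rule. limma 3.58.1 in R 4.3.3 fitted an additive model of genotype and time and a model with an interaction, with Benjamini-Hochberg adjustment at 0.05; the script was tested on simulated data. Members and lists were chosen with earlier results of these data known. Members were described with all values where they differed at least 2-fold in any comparison or were called by limma, and otherwise as examples of their role. Up to 3 genes per comparison were taken from each wider list. Alternatives were no floor, a floor at log2 7, the mean of all probe sets, cyclic loess, median centring, 1.5-fold, the other genotype's 0 h array and, for limma, trend with robust fitting and leaving out a time. Markers of other cell types were summed per array. Promoter sequences are RefSeq's.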

Additional observations from a re-analysis of the deposited data

Results flagged for a closer look

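For 3 members both arrays after hCG lay on opposite sides of 0 h in the 2 genotypes, with at least 1 of them 2-fold away. The mean response of knockout minus that of wild type was 2.75 (log2) for Hspa1b, 2.04 for Hspa1a and 0.95 for Sel1l. This difference was not tested between replicates, since each genotype and time has 1 array. In the limma interaction, whose residual is not a spread between animals, the adjusted p was 0.38 for Hspa1b, 0.41 for Hspa1a and 0.55 for Sel1l. The 3 values share the same pair of 0 h arrays, and Hspa1a and Hspa1b are near-identical copies.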

How the results depend on the processing

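No paired analysis was possible because each group has 1 array and the labels carry no replicate numbers. The median of all genes moved by -0.22 and -0.21 (log2) in wild type at 2.5 h and 4 h, and by 0.14 and 0.20 between genotypes at these times, under the deposited scaling. Counts of members at least 2-fold apart moved as follows, and the cause was not tested. No share of all genes is given for these alternatives. The counts therefore show only how the calls of members moved, not whether they exceed those of all genes. With cyclic loess they were 1 (wild type at 2.5 h, 2 as deposited), 3 (wild type at 4 h, 5 as deposited) and 1 (knockout at 4 h, 2 as deposited). Median centring gave 1 for wild type at 2.5 h and 1 for knockout against wild type at 4 h. The mean of all probe sets gave 3 for wild type at 4 h. At 1.5-fold the counts were 5 and 9 (wild type at 2.5 h and 4 h), 3 (wild type, 2.5 h to 4 h), 7 and 6 (knockout), and 6, 2 and 6 (genotypes at 0 h, 2.5 h and 4 h). Against the other genotype's 0 h array they were 2 for wild type at 2.5 h and 2 at 4 h, each time 1 higher and 1 lower. For knockout they were 0 at either time. That reference also reversed Hspa1a in wild type at 2.5 h (0.20), Hspa1b in knockout at 2.5 h (-0.26) and Hspa1a in knockout at 4 h (-0.19). In wild type it left Hspa1b at -0.19 at 2.5 h and -0.74 at 4 h, and Hspa1a at -0.08 at 4 h, all under 2-fold.

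Among limma calls, the genotype difference had 1 member without the 0 h arrays, and the hCG response 3 with cyclic loess, 3 with median centring, 2 with trend and robust fitting, 0 without the 2.5 h arrays and 2 without the 4 h arrays. Of the counts of direction, for which alternatives were added after seeing the data, knockout above wild type became 11 and 16 at 2.5 h and 17 and 18 at 4 h with cyclic loess and median centring. Wild type below 0 h at 4 h became 20 and 17, and wild type below with knockout above 0 h at 4 h became 13 and 13. In all, 83 counts under an alternative stayed within 1.5 times the reported one and 31 did not. Counts of 0 under both were taken as unchanged. Neither the direction of a call nor which members were called entered this tally, so it does not measure how stable the calls were. Single arrays, coarse steps of dim probe sets and shared 0 h arrays limit every value.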
